A study of Mus musculus with 8 samples.

Results

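The collagen genes are the rows of the count tables whose symbol has the form Col, a type number, the letter a and a chain number, and 43 of the 22609 gene symbols met that rule. They were grouped by the structure their chains build: 11 fibrillar, 6 basement membrane, 3 network, 6 beaded filament, 9 fibril-associated (FACIT), 4 transmembrane, 2 multiplexin, 1 anchoring fibril and 1 unclassed gene. Polyadenylated RNA of whole paw from C57BL/6J mice, an inbred laboratory strain, was sequenced in 4 female and 4 male libraries. All 8 libraries carry the same treatment label, prolactin (PRL, a pituitary hormone) at 0.1 µg injected into the paw once a day for 12 days, so the females and males shared it and no vehicle group was analysed here. The design asks whether the treated paw differs between the sexes. The labels do not say that each library came from its own animal, so p-values measure the spread between these libraries.

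Collagens are secreted or membrane-bound proteins in which 3 chains wind into a triple helix. Types I and III form the bulk of the fibrils of skin, tendon and fascia, type V sits inside those fibrils and regulates their width, and type IV forms the sheet of basement membranes. Type VI makes fine filaments around cells, type VII anchors the epidermis to the dermis, and type XVII is a membrane protein of basal keratinocytes.

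Sequence at gene starts is shown for 3 places to which the values below return. They are Col1a2 and Col3a1, the most abundant transcripts of the family, and the stretch between the annotated starts of Col4a1 and Col4a2. That pair is compared as a ratio below. The 2 type IV genes lie on opposite strands and overlap at their annotated starts, so this stretch lies within both transcripts. Sequences are from RefSeq on GRCm38.p6, a later build than the mm9 of the counts, plus strand, 5′ to 3′. Col1a2 (chr6:4505368-4505647) and Col3a1 (chr1:45311288-45311567) each cover 250 bases before and 30 bases after the annotated start, and the third (chr8:11312805-11312826) covers the 22 bases between the 2 starts. Capitals mark matches on either strand to 3 motifs. The first is CCAAT, the box bound by NF-Y. The second is the GC box GGGCGG. The third is the TATA-type motif TATAAA.
Col1a2: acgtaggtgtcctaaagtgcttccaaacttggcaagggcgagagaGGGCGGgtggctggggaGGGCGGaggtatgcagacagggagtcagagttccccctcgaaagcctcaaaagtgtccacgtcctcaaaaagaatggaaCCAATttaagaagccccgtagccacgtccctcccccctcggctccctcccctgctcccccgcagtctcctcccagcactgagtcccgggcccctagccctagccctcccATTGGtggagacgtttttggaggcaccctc
Col3a1: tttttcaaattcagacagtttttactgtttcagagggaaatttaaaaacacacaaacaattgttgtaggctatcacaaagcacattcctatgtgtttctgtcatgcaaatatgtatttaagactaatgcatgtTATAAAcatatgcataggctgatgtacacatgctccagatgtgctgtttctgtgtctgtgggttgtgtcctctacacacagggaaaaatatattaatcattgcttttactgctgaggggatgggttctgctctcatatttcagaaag
Col4a2 to Col4a1 starts: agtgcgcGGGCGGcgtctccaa
The Col1a2 window held 2 matches to GGGCGG and 2 to CCAAT, while the Col3a1 window held a single TATAAA and neither of the others. The short stretch shared by the type IV genes held 1 GGGCGG. Promoters were matched for 35 of the 43 collagen genes. GGGCGG or its complement was in 60.5% of the 38 collagen windows, against 34.7% of all 32851 windows of that length. CCAAT was in 34.2% against 36.1%, and TATAAA in 13.2% against 13.1%. A match is a description of letters and not a binding site.

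Each library held 16753528 to 24993744 counts in genes, and X- and Y-linked transcripts fitted the labelled sex in 8 of 8. The libraries held dermal, epidermal and muscle transcripts in differing amounts. Levels are in CPM, counts divided by the TMM-corrected size of the library and multiplied by 1000000. The summed CPM of 16 fast muscle markers ran from 40.3 to 22549 in females and from 1021 to 30395 in males. Those of 10 fibroblast markers ran from 2667 to 5628 in females and from 3395 to 4924 in males. The 10 cartilage markers summed to 88.9 to 279 CPM in females and 99.4 to 261 CPM in males. Most of that came from Comp, with 717 to 3853 counts per library, Sox9 and Cytl1, while Acan had 5 to 97 counts and Matn1 at most 1. The 10 bone markers summed to 9.24 to 16.9 CPM in females and 7.76 to 11.8 CPM in males, with Sost and Mepe at 0 in all 8. In whole tissue, fewer cells of a type and less RNA per cell cannot be told apart.

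Collagen transcripts made up 1.26% ± 0.51 of all counts in genes in females and 1.38% ± 0.251 in males (SD, n = 4 each). The female libraries held 1.21, 1.01, 0.828 and 1.99%, and the male libraries 1.47, 1.14, 1.69 and 1.21%. Female 4 was the highest and female 3 the lowest of the 8, and the sexes overlapped. The share of collagen counts from Col1a1, Col1a2 and Col3a1 was 66.3, 64.3, 61.9 and 68.6% in females, against 73.4, 72.4, 73.4 and 69.95% in males, and here the sexes did not overlap. Divided by the length of the longest protein-coding transcript, the level over the 8 libraries was 913 ± 291 CPM per kb for Col3a1, 451 ± 125 for Col1a2 and 279 ± 87.1 for Col1a1. The next by this scale were Col6a1 at 93.0 ± 25.1, Col5a2 at 89.0 ± 26.9 and Col17a1 at 85.3 ± 19.2 CPM per kb, and those 3 lie within 1 SD of each other. At the low end, 5 genes had too few counts to be tested: Col2a1, the main chain of cartilage fibrils, with 0 to 19 counts per library, Col10a1 of growth-plate cartilage with 1 to 11, Col6a4 with 3 to 22, Col19a1 with 5 to 19 and Col9a2 with 2 to 13.

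**Figure D1:**
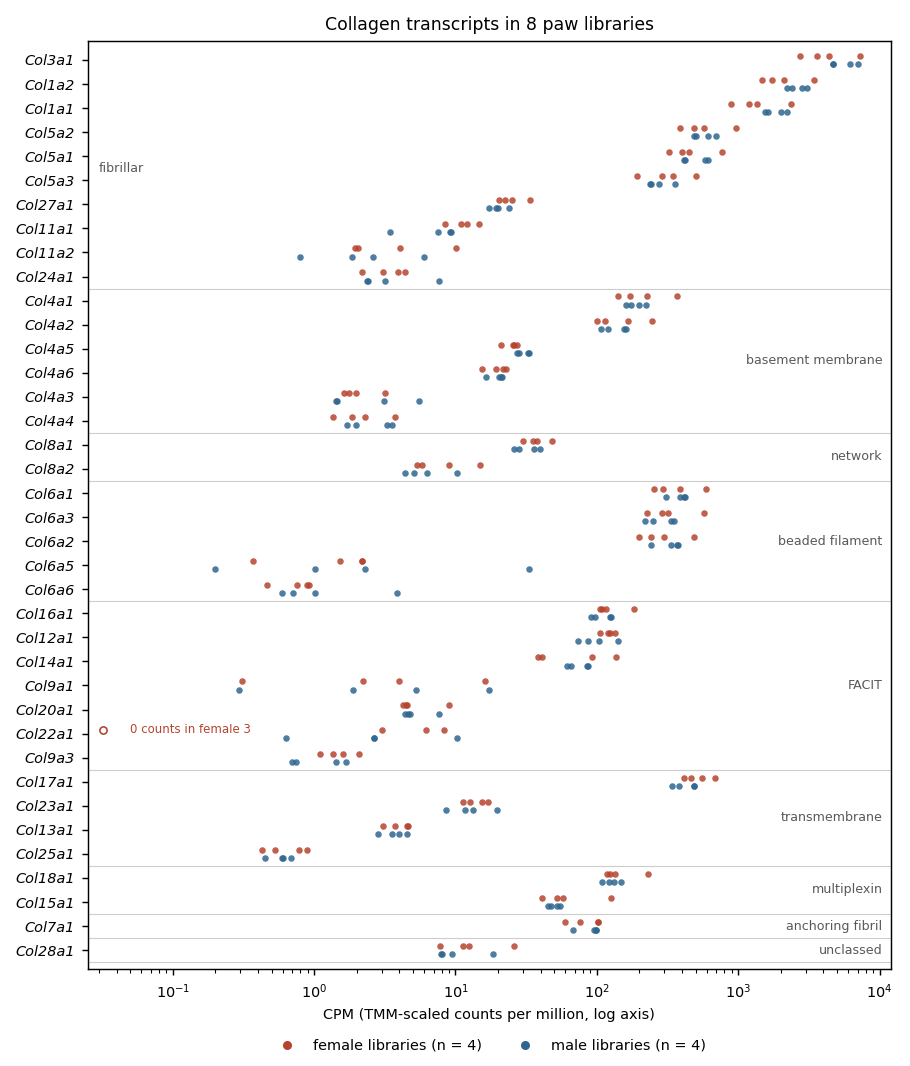
Level of the 38 tested collagen genes in each library, in TMM-scaled CPM on a log axis, grouped by class, with female libraries above male ones for each gene. The open circle stands for the library with 0 counts of Col22a1; points of the sexes overlap for every gene but Col4a5.

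No collagen gene was called between the sexes. The edgeR quasi-likelihood test with Benjamini-Hochberg adjustment over all 14790 tested genes called 0 of the 38 tested members, beside 0.0947% of all genes (0.0406% higher and 0.0541% lower in females), and the smallest adjusted p of a member was 0.728. At an unadjusted p under 0.05 stood 1 member, or 2.63%, beside 6.53% of all genes. DESeq2 and limma-voom also called 0, with 2 members each at an unadjusted p under 0.05, beside 7.01% of all genes for DESeq2 and 6.57% for limma-voom. Over all genes DESeq2 called 112 and limma-voom 16, against 14 by edgeR. The log2 fold change, female over male, was above 0 for 24 members, beside 52.7% of all tested genes, and below 0 for 14, with a median of 0.09, against 0.01 over all tested genes. Of the tested members, 1 had libraries that did not overlap between the sexes, or 2.63%, beside 4.73% of all tested genes.

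**Figure D2:**
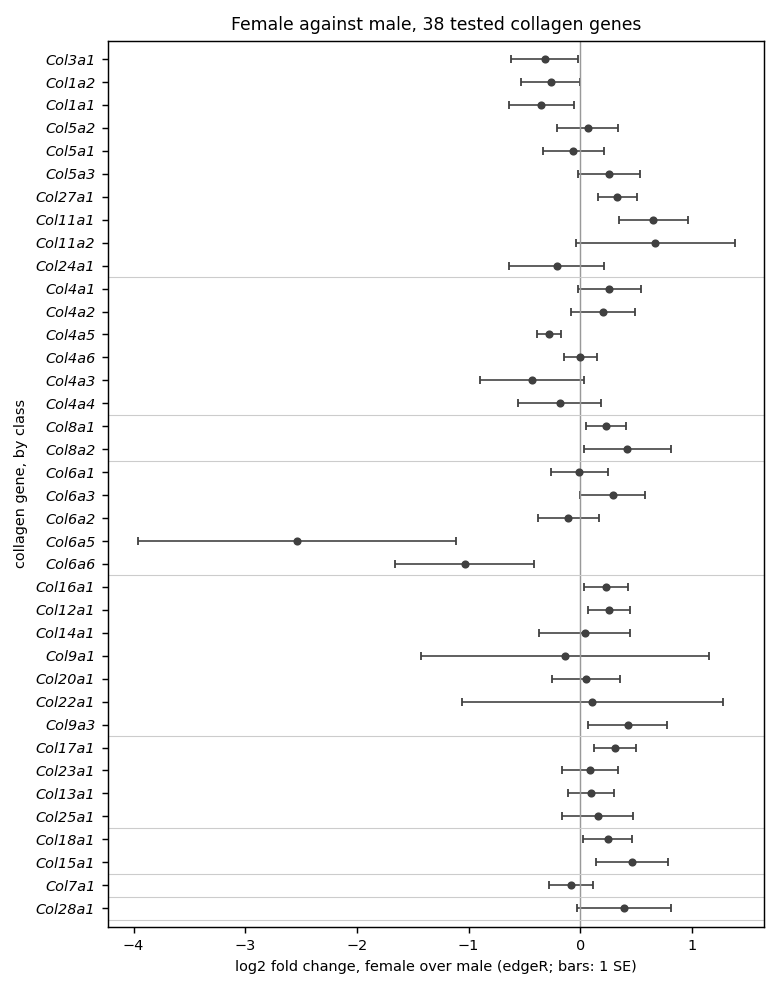
Log2 fold change of each tested collagen gene, female over male, with 1 SE from the edgeR fit, grouped by class from fibrillar at the top. Most values lie within 0.5 of 0, and Col6a5 at -2.54 has the widest error.

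Among the fibrillar genes, 5 had a fold change above 0 and 5 below, with a median of 0.00. Col3a1, the chain of type III fibrils, had 4423, 3595, 2739 and 7335 CPM in females, against 6141, 4686, 7009 and 4713 CPM in males. Female 4 held the highest value of all 8 and the other females the lowest, and the log2 fold change was -0.32 (SE 0.30, edgeR adjusted p = 0.986). Col1a2, a chain of type I, had 2112, 1743, 1478 and 3438 CPM in females, against 2835, 2405, 3083 and 2213 CPM in males, with the same order of the females (log2 fold change -0.26, SE 0.26, adjusted p = 0.990). Col1a1, its partner, had 1352, 1192, 894 and 2375 CPM in females, against 2005, 1620, 2228 and 1547 CPM in males (log2 fold change -0.35, SE 0.29, adjusted p = 0.960). For these 3 genes the sexes overlapped through female 4 alone. Without that library, and with the other 7 scaled anew, these 3 were the tested members whose libraries did not overlap, all lower in females. Of all tested genes, 3.61% were lower and 5.15% higher without overlap. The log2 fold changes of Col1a1, Col1a2 and Col3a1 were then -0.70, -0.58 and -0.66, with adjusted p of 0.508, 0.536 and 0.570 (edgeR). On that scale Col4a5, described below, overlapped narrowly, with 27.24 CPM in female 3 and 27.21 CPM in male 2. Without female 3 instead, the log2 fold changes were -0.17, -0.12 and -0.14, and the collagen share of counts, 0.12 percentage points lower in females over all 8 libraries, was 0.021 points higher in females. Col5a2, a type V chain, had a mean of 603 CPM (SD 253) in the 4 females and 576 CPM (SD 98.5) in the 4 males. Its values were 571, 487, 389 and 965 CPM in females and 612, 489, 699 and 503 CPM in males, again with female 4 highest and female 3 lowest. The other tested fibrillar genes ran from Col24a1, with a log2 fold change of -0.21 (SE 0.42), to Col11a2, at 0.67 (SE 0.71).

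Among the basement membrane genes, Col4a1 and Col4a2, the chains of the ubiquitous type IV network, were, like the main fibrillar genes, highest in female 4. Col4a1 had 228, 140, 171 and 368 CPM in females and 175, 199, 222 and 161 CPM in males. Col4a2 had 167, 99.7, 115 and 245 CPM in females and 121, 156, 160 and 107 CPM in males. The sexes overlapped for both, with log2 fold changes of 0.26 (SE 0.28) and 0.21 (SE 0.28). Col4a5, an X-linked chain used in the basement membranes of skin and kidney, had 21.0, 25.9, 27.1 and 25.5 CPM in females, against 32.4, 27.4, 28.0 and 33.0 CPM in males. All 4 female values lay below all 4 male values, which made it the single tested member without overlap, beside 1.81% of all tested genes lower in females without overlap. Its log2 fold change of -0.28 (SE 0.11, unadjusted p = 0.0315) had an adjusted p of 0.728 in edgeR and did not pass. Col4a6, its X-linked neighbour, had 19.3, 22.7, 21.8 and 15.3 CPM in females and 21.4, 16.3, 21.1 and 20.2 CPM in males, with a log2 fold change of 0.00 (SE 0.15). Col4a3 and Col4a4 were rare, at 1.37 to 5.51 CPM.

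The beaded filament genes held the widest single excursion of the family. Col6a1 had 385, 295, 253 and 588 CPM in females and 390, 310, 418 and 412 CPM in males. Col6a2 had 297, 244, 198 and 485 CPM in females and 337, 240, 366 and 374 CPM in males. Col6a3 had 320, 290, 228 and 576 CPM in females and 352, 220, 337 and 248 CPM in males. These chains of type VI were highest in female 4, and their log2 fold changes lay between -0.11 and 0.29. Col6a5, an alternative type VI chain, had 26, 8, 49 and 57 counts in females, against 4, 19, 42 and 675 counts in males. Male 4 thus stood at 33.1 CPM, 14.4-fold over the next library, and the log2 fold change of -2.54 (SE 1.42; by edgeR, adjusted p = 0.845) became 0.43 without male 4. Col6a6, the gene beside it on chromosome 9, had 3.87 CPM in male 4 and at most 1.02 CPM in any other library. By the gap of male 4 over every other library, Col6a5 ranked 1 and Col6a6 ranked 3 of the 14790 tested genes, and 8 genes stood more than 2-fold apart there. Col6a4, adjacent to Col6a5, had 8 counts in male 4. The network genes Col8a1 and Col8a2, made by endothelium and cornea among other sites, had log2 fold changes of 0.23 (SE 0.18) and 0.42 (SE 0.39). Col8a1 was at 0.084 without female 4, and Col8a2 at 0.041 without female 1 and 0.72 without male 2.

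Of the 7 tested FACIT genes, which sit on the surface of fibrils or at tissue junctions, 6 had a fold change above 0. Col16a1 had 117, 106, 109 and 182 CPM in females and 123, 91.4, 126 and 96.8 CPM in males. Col12a1 had 106, 124, 121 and 133 CPM in females and 141, 86.3, 103 and 74.1 CPM in males. Col14a1 had 92.0, 40.6, 38.6 and 136 CPM in females and 84.7, 65.2, 87.1 and 61.7 CPM in males. For each of the 3 the sexes overlapped, with log2 fold changes of 0.23 (SE 0.20), 0.26 (SE 0.19) and 0.04 (SE 0.41), and without female 4 Col16a1 was at 0.0063. Col17a1, the basal keratinocyte collagen, had another order of libraries, with 463, 685, 550 and 413 CPM in females and 339, 384, 487 and 490 CPM in males. Female 4, the highest library for the fibrillar genes, was the lowest female here (log2 fold change 0.31, SE 0.19, adjusted p = 0.868). Col7a1, the anchoring fibril, had 75.5, 103, 102 and 60.0 CPM in females and 95.5, 67.3, 98.2 and 98.4 CPM in males, with female 4 again the lowest. The summed CPM of 9 keratinocyte markers was 60863 and 61698 in females 1 and 4, the lowest values of the 8 libraries. It was highest in male 1, at 97733, where Col17a1 was the lowest of the 8 libraries and Col7a1 stood at 95.5 CPM. Most of that sum was Krt1, Krt2 and Krt10, with 272328, 749751 and 720761 counts in male 1. Single markers peaked in different libraries by raw counts. Krt5 and Trp63 were highest in female 2, as Col17a1 was, at 44351 and 7793 counts. Krt1 and Lor peaked in male 1, Krt10 in male 4, and Krt2, Krt14, Ivl and Dsg1a in female 3. The part of these markers in the Col17a1 and Col7a1 values was not tested. The multiplexins Col18a1 and Col15a1, of vascular and epithelial basement membrane zones, were highest in female 4 at 230 and 125 CPM. Col18a1 was 117 to 134 CPM in the other females and 108 to 149 CPM in males, and Col15a1 was 41.1 to 57.5 CPM in the other females and 45.03 to 54.9 CPM in males. The remaining transmembrane genes Col23a1, Col13a1 and Col25a1 and the unclassed Col28a1 had log2 fold changes of 0.09 to 0.39.

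The libraries differed more in collagen than in most genes. The SD of log2 CPM over 8 libraries had a median of 0.43 over the 38 tested members, against 0.22 over all tested genes, and 36 of the 38 lay above that median. Female 4 was the highest library for 20 members, or 52.6%, while it was the highest for 19.7% of all genes. Female 3 was the lowest for 13 members, or 34.2%, against 21.2% of all genes. The fibroblast markers summed to 4809, 2667, 2754 and 5628 CPM in females and 4016, 4924, 4314 and 3395 CPM in males, and the endothelial markers to 476, 312, 342 and 587 CPM in females and 353, 573, 429 and 374 CPM in males. Both were highest in female 4 and lowest in female 2, with male 2 second, a library of low collagen share. Most of the fibroblast sum was Dcn, so its order largely reflects 1 gene. Dcn had 2897, 1460, 1575 and 2943 CPM in females and 2250, 3173, 2389 and 1916 CPM in males, with male 2 highest. The part of the fibroblast and endothelial markers in the collagen values was not tested. The smallest SDs belonged to Col4a5 and Col4a6, at 0.20 each.

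**Figure D3:**
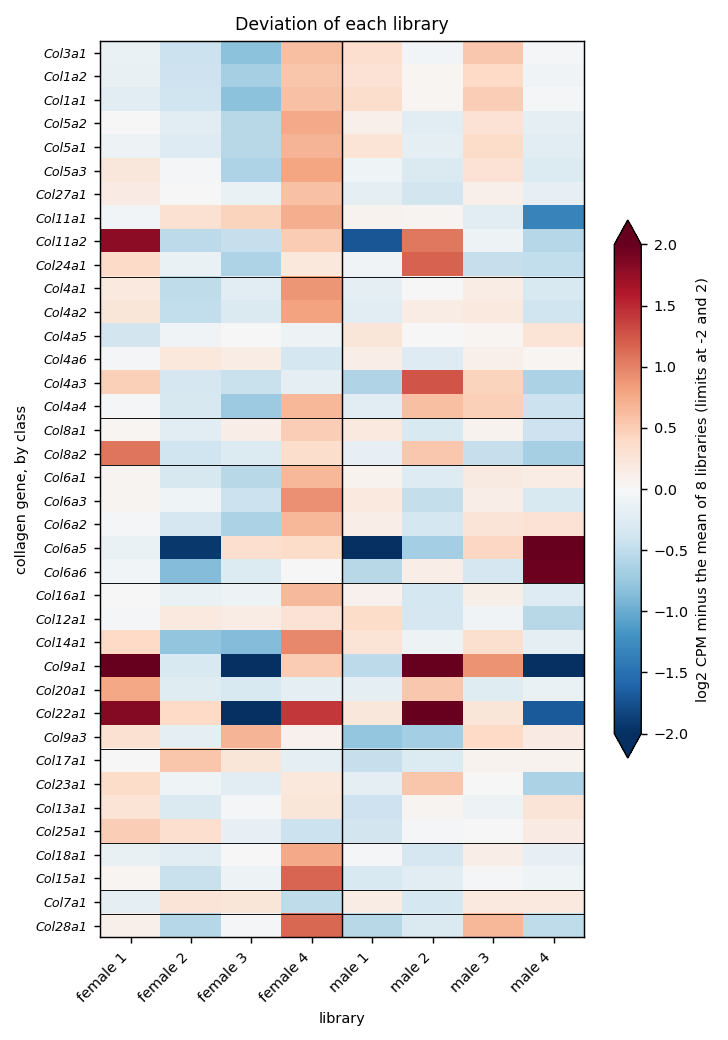
Log2 CPM of each tested collagen gene in each library minus its mean over the 8 libraries, female libraries left of the line, genes by class. Female 4 is red for most fibrillar and type VI genes and for Col4a1, Col4a2 and Col4a4, female 3 is blue for most of these, and Col9a1, Col22a1 and Col6a5 show the strongest colours.

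Relative to the type I and III genes, several other collagens stood higher in females. Counts of each gene were divided by the summed counts of Col1a1, Col1a2 and Col3a1 in the same library. This comparison was chosen after the values were seen, so the numbers of genes without overlap are given with no test. Of the other 35 tested members, 10 were higher in every female than in every male library, or 28.6%, beside 2.16% of all genes, and 0 were lower, beside 0.135%. Such genes were not confined to the family. Without overlap and higher in females were also 4 of 12 genes for procollagen processing and cross-linking, 5 of 21 for folding and modification, 4 of 19 fibril-associated proteins, 2 of 19 basement membrane partners, 0 of 10 collagen receptors and 3 of 10 fibroblast markers, with Lum on the last list and the fibril-associated one. The 10 collagen genes were the fibrillar Col5a1, Col5a2, Col5a3, Col11a1 and Col27a1, and Col6a3, Col8a1, Col15a1, Col16a1 and Col18a1. Col5a2 stood at 7.24, 7.45, 7.61 and 7.34% of that sum in females, against 5.57, 5.62, 5.67 and 5.94% in males. The means were 7.41% ± 0.156 in females and 5.70% ± 0.166 in males (SD, n = 4 each). Col6a3 stood at 4.05, 4.44, 4.46 and 4.38% in females, against 3.20, 2.52, 2.74 and 2.93% in males. Col16a1 stood at 1.48, 1.62, 2.13 and 1.38% in females, against 1.12, 1.05, 1.02 and 1.14% in males. These genes, like Col5a2, are among the 10 listed for lack of overlap, so the gap between the sexes in them follows from that choice. Summed by class, the FACIT genes made up 2.45 to 3.34% of collagen counts in females and 1.97 to 2.40% in males. The multiplexins made up 1.52 to 2.26% in females and 1.18 to 1.44% in males. The shares of all other classes overlapped between the sexes, and the type I and III counts are part of the denominator of each share. Without female 4 the share of all genes that were higher in females became 38.3%, and that of the collagen genes 42.9%, so there the family was near the background. The count was 17 without male 2, beside 6.52% of all genes, and 18 without both male 2 and female 3, beside 7.34%. With libraries scaled to the same sum, edgeR called 0 members and 0.365% of all genes, and this scaling moved the median log2 fold change of all genes by 0.44. Of the 35 members, Col11a1 had the smallest p in that edgeR fit, 0.0027 unadjusted and 0.318 adjusted.

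**Figure D4:**
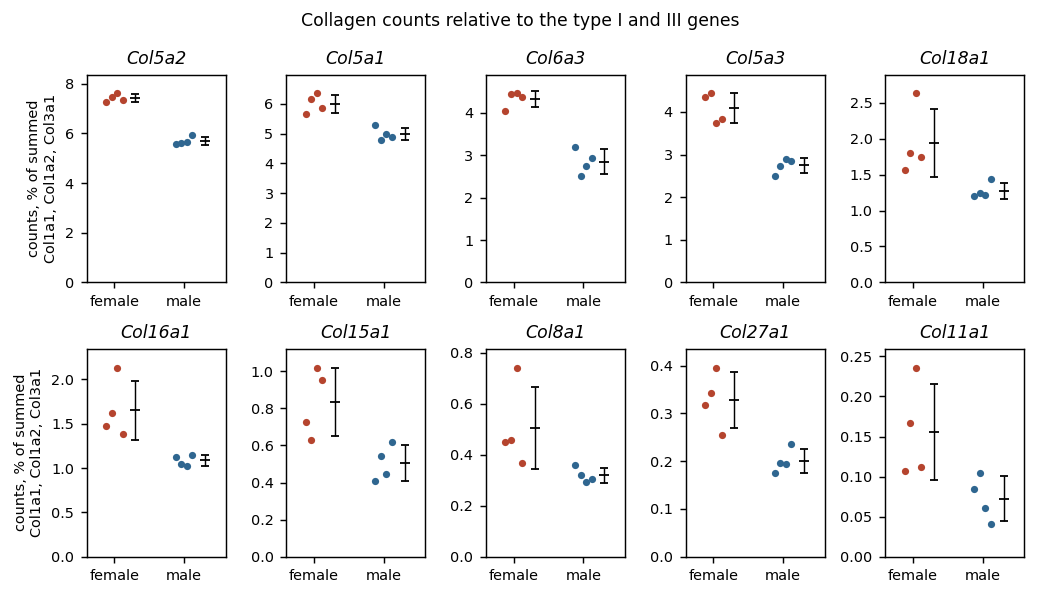
Counts of 10 collagen genes as a percentage of the summed Col1a1, Col1a2 and Col3a1 counts of the same library, one point per library, females left, males right, with the mean and SD beside them. The lowest female value lies above the highest male value in all 10 panels, which were chosen for that.

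Chains that share a trimer were compared as 11 count ratios, each with an exact two-sided permutation test over all 70 ways to assign the sex labels, whose smallest p is 0.0286. A lone pair at that floor would have an adjusted p of 0.314, and 7 pairs would have to reach it to pass, so no single pair could. None of the differences passed, with p adjusted over the 11 pairs between 0.377 and 1, and all 11 pairs overlapped. The Col1a1 to Col1a2 ratio was 0.640, 0.684, 0.605 and 0.691 in females, against 0.707, 0.674, 0.723 and 0.699 in males (log2 difference -0.10, exact p = 0.114). The Col4a1 to Col4a2 ratio stayed between 1.37 and 1.499 in females and between 1.28 and 1.51 in males (exact p = 0.6). Its SD over the 8 libraries, 0.082 on the log2 scale, was close to those of Col1a1 to Col1a2 at 0.083, and of Col5a1 to Col5a2 and Col6a1 to Col6a2 at 0.088 each. The Col6a3 to Col6a1 ratio was 0.831, 0.981, 0.901 and 0.980 in females, against 0.903, 0.708, 0.807 and 0.602 in males (log2 difference 0.30, exact p = 0.0857). The Col5a1 to Col5a2 ratio had a log2 difference of -0.11 (exact p = 0.0857) and the Col6a1 to Col6a2 ratio one of 0.09 (exact p = 0.171). Ratios of the rarer chains ranged far more widely, with Col8a1 to Col8a2 at 2.38 to 7.09 and Col11a1 to Col11a2 at 0.848 to 11.3 over the 8 libraries.

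Muscle content differed between libraries, and a slope on the mean log2 CPM of the 16 fast muscle markers was fitted beside sex, a test added after the values were seen. Col22a1, a collagen of the muscle-tendon junction, rose with the muscle score by 0.78 log2 units per unit (SE 0.09, edgeR adjusted p = 0.00124), and Col9a1, a cartilage FACIT chain, by 0.80 (SE 0.10, adjusted p = 0.00286). These were 2 of 38 members, beside 5.04% of all genes called in that fit and 4.33% called as rising. Col22a1 had 8.31, 3.002, 0 and 6.17 CPM in females, against 2.64, 10.2, 2.67 and 0.637 CPM in males. Col9a1 had 16.1, 2.22, 0.309 and 3.97 CPM in females, against 1.89, 17.2, 5.24 and 0.294 CPM in males. Both were highest in female 1 and male 2, the libraries with the highest muscle scores of 9.89 and 10.3, and low in female 3 and male 4, which had the lowest scores of 0.689 and 5.22. The tendon markers were also highest in female 1 and male 2, at 1172 and 1064 summed CPM, as were the cartilage markers, at 279 and 261 summed CPM. Most of the cartilage sum there was Comp, at 224 and 206 CPM. Ucma had 5 and 21 counts there and 0 in the other libraries. Sox9 was highest in male 4, and Acan, Epyc and Cytl1 were highest in female 4. The part of the tendon and cartilage markers was not tested. Without female 3, 5 members were called, Col4a3, Col8a2 and Col23a1 in addition, beside 7.05% of all genes. Without both female 3 and male 2, Col9a1 alone of the family was called, beside 2.25% of all genes, and Col22a1 had a slope of 0.56 (adjusted p = 0.139). Between the sexes the log2 fold changes of Col22a1 and Col9a1 were 0.11 (SE 1.16) and -0.14 (SE 1.29).

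**Figure D5:**
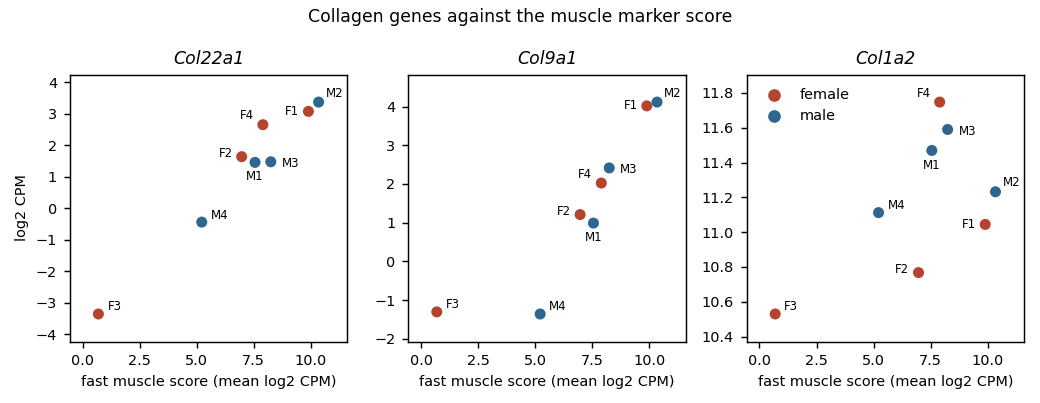
Log2 CPM of Col22a1, Col9a1 and Col1a2 against the mean log2 CPM of 16 fast muscle markers, 1 point per library, labelled F1 to F4 and M1 to M4. Col22a1 and Col9a1 run from female 3 and male 4 at the low end to female 1 and male 2 at the high end; Col1a2 is shown for contrast, with a slope that was not called.

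The partners of collagen were read from 5 lists with 81 tested genes, and edgeR called 0 of them. Of 21 tested genes for chain modification and folding, 7 had a fold change above 0 and 14 below (median -0.03). Of 12 for procollagen processing and cross-linking the split was 4 and 8 (median -0.06), of 19 fibril-associated proteins 9 and 10 (-0.12), of 19 basement membrane partners 9 and 10 (-0.01), and of 10 collagen receptors 7 and 3 (0.07). At an unadjusted p under 0.05 stood 5 of the 81, or 6.17%, beside 6.53% of all genes, and 3 of the 81, or 3.7%, did not overlap, beside 4.73%. Leprel4, of the prolyl 3-hydroxylase family, had 47.8, 61.5, 58.3 and 54.3 CPM in females, against 79.2, 63.7, 72.8 and 82.1 CPM in males, with no overlap (log2 fold change -0.42, SE 0.11, edgeR adjusted p = 0.458). Plod2, a lysyl hydroxylase of the cross-link sites, had 19.6, 16.03, 14.2 and 28.2 CPM in females, against 11.3, 10.4, 12.3 and 12.8 CPM in males (log2 fold change 0.73, SE 0.21, adjusted p = 0.575). The females were all above the males for Plod2 and all below them for Leprel4. Fras1, a protein of the epidermal basement membrane, had 18.0, 18.2, 15.4 and 10.3 CPM in females, against 30.4, 24.0, 26.5 and 22.2 CPM in males (log2 fold change -0.74, SE 0.19; by edgeR, adjusted p = 0.458), and DESeq2 called it lower (adjusted p = 0.0331), 1 of its 112 calls over all genes. The next genes by p in each list did not pass either. Adamts14, a procollagen peptidase, had a log2 fold change of 0.44 (SE 0.14; by edgeR, adjusted p = 0.650) and Loxl4, a lysyl oxidase family member, one of -0.31 (SE 0.25). Among fibril-associated proteins Epyc was at 0.72 (SE 0.52) and Dpt at -0.32 (SE 0.27) on that scale. Lamc3, a laminin chain, was at -0.38 (SE 0.15), and the receptors Itga10 and Cd36 at 0.37 (SE 0.36) and -0.23 (SE 0.34).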

How the data were processed

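The tools named are TopHat2, HTSeq and bcl2fastq, with the genome build mm9, per the submitters' processing notes. The sources used here give no versions, annotation or strand setting; had strand been ignored, reads of overlapping antisense genes could not be told apart. The authors deposited whole-number read counts per gene symbol for each library, without normalization. Lines that name no gene stayed out of all totals (reads in no feature, 18 to 21.1% of uniquely placed reads). Counts were tested in R 4.3.3 with edgeR 4.0.16 (filterByExpr, TMM, robust quasi-likelihood fit, sex as the sole term), with Benjamini-Hochberg adjustment over 14790 genes and calls at an adjusted p under 0.05. The SE was taken from the log2 fold change and the F statistic. DESeq2 1.42.0, limma-voom (limma 3.58.1), other size factors and filters, a muscle covariate and left-out libraries were alternatives. The test was checked on simulated data. Counts of same-sex libraries differed beyond sampling noise (chi-square per degree of freedom of at least 13.2). Levels per kb use GENCODE vM21 lengths on GRCm38. Shares and ratios carry counting error besides the spread shown. Members and lists were chosen with earlier results of these data known. Named were up to 4 members per class by mean CPM, those at an unadjusted p under 0.05 or without overlap, the 3 of widest log2 range, and 2 partner genes of smallest p per list; the muscle slope, the ratios to type I and III counts and other names were chosen after seeing values.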

Additional observations from a re-analysis of the deposited data

Results flagged for a closer look

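In 118 groups of 4 libraries, 7 had a library far from the other 3 of its sex. Chance gives about 1 in 20, so 7 is near the number that chance alone would give. Class sums share genes with the single members, so the groups are not independent. Col20a1 stood at 3.19 log2 CPM in female 1, against 2.12 to 2.22 in the other females, and at 2.95 in male 2, against 2.17 to 2.28 in the other males. These 2 libraries had the highest muscle scores, and the part of muscle in the values was not tested beyond the slope, which was not called for this gene (edgeR adjusted p = 0.175). Col7a1 stood at 6.07 log2 CPM in male 2, against 6.58 to 6.62 in the other males. The anchoring fibril class holds this gene alone, so its flag in male 2, at 67.3 CPM against 95.5 to 98.4, is the same observation. The summed beaded filament genes were also low in male 2, at 772 CPM against 1071 to 1124 in the other males. The multiplexins were high in female 4, at 355 CPM against 159 to 186 in the other females. The unclassed Col28a1 was high in male 3, at 18.4 CPM against 7.86 to 9.47 in the other males.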

How the results depend on the processing

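Calls of collagen genes between the sexes did not depend on the settings. Under each of 17 alternatives, and with libraries scaled to type I and III counts, 0 collagen genes were called. Over the 17 alternatives the smallest adjusted p of the 27 named members was 0.333 (edgeR with the muscle covariate). The signs of these uncalled fold changes did depend on the settings. Of 458 recomputed fold changes 53 had the opposite sign, over 18 genes, as had 14 pair ratios; the cause was not tested. Col4a6, near 0, became -0.0101 with RLE size factors, -0.0152 with upper quartile, -0.0108 with DESeq2 and -0.00026 with no filter. With limma-voom Col5a2 was -0.013, Col4a6 -0.018, Col14a1 -0.15 and Col22a1 -0.99. With the muscle covariate Col4a6 was -0.051, Col6a1 0.036 and Col9a1 0.55. Without male 2 and female 3, Col4a6 was -0.15, Col6a1 0.043 and Col9a1 1.57, and the log2 ratios were -0.026 for Col4a1/Col4a2, 0.089 for Col4a3/Col4a4, 0.37 for Col9a1/Col9a2 and -0.60 for Col11a1/Col11a2. The median of the basement membrane class became 0.18 there, 1 collagen gene had a called muscle slope (2.25% of all genes) and 18 were higher in females relative to type I and III counts (7.34% of all genes).

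Same-numbered libraries did not deviate together (correlations -0.308, -0.168, -0.0911 and -0.271). The labels do not say what the number stands for, and these correlations cannot exclude that it marks something shared. With the replicate block 0 collagen genes and 7 genes in all were called, and Col5a2 was -0.0058, Col4a6 -0.0081, Col14a1 -0.16 and Col22a1 -0.15.

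Leaving out each library in turn gave log2 fold changes from -0.26 to 0.23 for Col5a2, -0.084 to 0.43 for Col4a1, -0.10 to 0.37 for Col4a2, -0.091 to 0.10 for Col4a6, -0.31 to 0.14 for Col6a1, -0.43 to 0.055 for Col6a2, -0.059 to 0.45 for Col6a3, -2.94 to 0.43 for Col6a5 and -0.21 to 0.049 for Col7a1. They ran from -1.50 to 1.16 for Col9a1, -0.012 to 0.21 for Col13a1, -0.40 to 0.26 for Col14a1, -0.00054 to 0.65 for Col15a1, -0.037 to 0.35 for Col18a1, -0.40 to 1.12 for Col22a1, -0.076 to 0.32 for Col23a1, -0.013 to 0.32 for Col25a1 and -0.065 to 0.76 for Col28a1. Pair ratios ran from -0.0098 to 0.071 for Col4a1/Col4a2, -0.20 to 0.26 for Col4a3/Col4a4, -0.46 to 0.17 for Col8a1/Col8a2 and -0.30 to 0.67 for Col11a1/Col11a2. The multiplexin median ran from -0.019 (without female 4) to 0.50, members with a called muscle slope from 2 to 5 (without female 3), and members higher relative to type I and III counts from 10 to 17 (without male 2, 6.52% of all genes). DESeq2 called 1 partner gene lower, Fras1. At these depths the 5 collagen genes left untested had at most 22 counts in any library, so no difference was tested for them. Among them, Col9a2 had 7, 13, 10 and 10 counts in females and 2, 6, 2 and 6 in males. Its CPM was higher in every female than in every male library, at a level too low to test.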
